A study of Mus musculus with 9 samples.

Results

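RNA from small-intestinal mouse organoids grown with TGF-beta1 ligand was compared with RNA from untreated organoids. The arrays were chosen by their titles, 3 ligand and 3 untreated, which makes 6 of the 9 arrays in the series. Intestinal organoids are closed epithelial cultures grown from crypt cells, in which stem cells and their differentiated progeny live side by side. RNA levels were read on the Affymetrix Mouse Genome 430 2.0 array, in which sets of short probes near the 3 prime end of a transcript (probe sets) give 1 signal each. The ligand group received TGF-beta1 at 0.04 ng/mL without interruption for 5 days from day 1 of a culture of 6 days. The untreated group was cultured for the same 6 days and its labels name no agent and no vehicle. The remaining 3 arrays were treated at 20 uM with a compound that inhibits TGF-beta receptors. They entered here only through the estimate of the spread, the filter on low signals and the choice of 1 probe set per gene. Each of these steps used all 9 arrays. The labels give no mouse strain, age, sex or genotype, and do not say whether replicates came from separate cultures or animals. The p-values are thus set against the spread between these arrays alone, and that spread may be technical.

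TGF-beta is secreted in a latent form and is freed by integrins and matrix proteins. The free ligand brings type II and type I receptor kinases together, which phosphorylate Smad2 and Smad3. With Smad4 these enter the nucleus, where they raise or lower target genes, among them genes whose products damp the pathway itself. In the intestine the pathway is known for holding back epithelial growth, for wound repair and, in many epithelia, for a loss of epithelial character named epithelial-mesenchymal transition.

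Of 18193 genes with 1 annotated symbol on the array, 12941 passed the filter on low signals and were tested with limma on log2(signal + 16). A gene is said to have risen, fallen or been called where its adjusted p was under 0.05. Of the genes tested 24.1% were called, 14.8% higher and 9.37% lower with the ligand, and the 3 arrays of each group did not overlap in 38.6%. These are the shares against which the counts below are read. The gene lists were chosen with earlier results of these data known. Their shares and their ranking are thus descriptions and no independent support. Changes are given on the log2 scale of signal + 16 as estimate ± SE, folds are of signal + 16, and limma's p-values are adjusted over all genes tested by the Benjamini-Hochberg method. Members behind a count of 5 or fewer that the rule for named genes did not choose were named after their values were seen. The rises reached further than the falls: 23 genes rose at least 4-fold and 4 fell that much, and at least 8-fold these numbers were 5 and 0. Of the genes that rose, 71 lay at or under the filter level (a signal of 25.9 to 32.0, depending on the array) on all 3 untreated arrays, and of the genes that fell, 23 did so on all 3 ligand arrays. Such genes could be tested only where they exceeded the level on other arrays. Itgb8, Fstl1 and Cblif, members of lists below, passed the filter through the ligand arrays alone. Lect2, another list member, had signals of 31.6, 17.5 and 13.2 on the inhibitor arrays and would not have passed without the ligand arrays. Such members add to a count of rises only because they were high with the ligand. The median change over all genes was 0.05 on the log2 scale. Centring each array on its median moved it by -0.11, and then 36.4% of the called genes were higher, against 61.2% without centring, and 53.6% under quantile normalization. Medians of array signal were 49.5 ± 2.95 (SD, n = 3) in untreated and 54.8 ± 3.16 in ligand arrays, with p = 0.1 in an exact permutation test, the lowest p possible for 3 against 3. For the beta-actin control probe sets, the log2 ratio of 3 prime to 5 prime signal was 0.41 ± 0.04 in untreated and 0.47 ± 0.10 in ligand arrays (exact p 0.6), and highest, at 0.58, on ligand replicate 3. Array signals correlated at 0.989 to 0.992 within groups and at 0.974 to 0.982 between them, on the log2 scale over the genes tested. Markers of the labelled tissue were present on all 6 arrays, the lowest signals being 10239 for Epcam, a surface protein of epithelia, and 7019.9 for Alpi, the alkaline phosphatase of the small intestine.

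**Figure D1:**
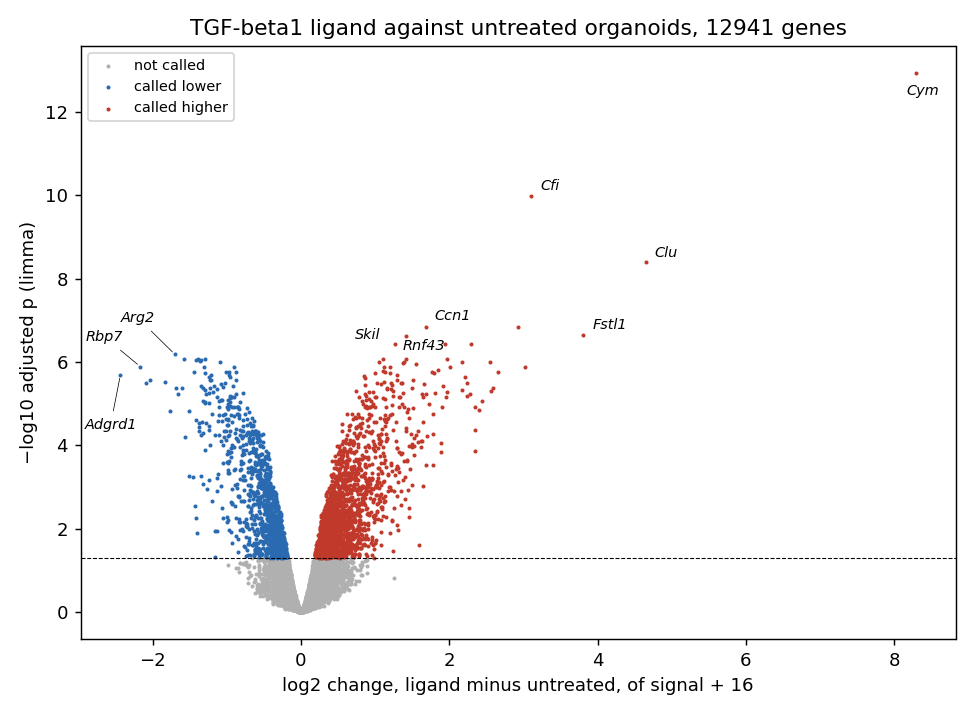
Each point is 1 of the 12941 genes tested. The horizontal axis is the log2 change of signal + 16, ligand minus untreated, the vertical axis the −log10 of limma's adjusted p, and the dashed line marks 0.05. Red points were called higher (1911 genes) and blue points lower (1212 genes). Cym stands far to the right of all others, at a log2 change of 8.29.

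Among the genes of TGF-beta family ligands and of the proteins that free them, 5 of 13 tested rose and none fell, with a median log2 change of 0.43. Tgfb1, which encodes the added ligand itself, gave signals of 61.4, 42.6 and 55.1 on the untreated arrays and 86.9, 95.1 and 93.4 on the ligand arrays. All 3 ligand arrays lay above all untreated arrays, at a change of 0.65 ± 0.16 and adjusted p 0.00917. A second probe set of Tgfb1 did not pass (change -0.35), and the call was lost when probe sets were averaged (adjusted p 0.555). Thbs1, a matrix protein that can activate latent TGF-beta, had signals of 28.9, 21.5 and 41.1 on the untreated arrays and 96.9, 118 and 109.9 on the ligand arrays, a rise of 2.70-fold. Itgb8, an integrin subunit with the same role, moved from under the filter level on every untreated array (7.34, 7.27 and 5.98) to above it on every ligand array (33.8, 49.7 and 39.0). Its partner subunit Itgav rose by 0.45 ± 0.09, and Itgb6, another partner of Itgav, by 0.62 ± 0.19 with an adjusted p of 0.0273 that was lost in 8 of 16 alternative settings. The activin and inhibin subunit genes Inha (0.47 ± 0.19), Inhba (0.08 ± 0.38) and Inhbb (0.14 ± 0.25) did not pass, and neither did Gdf11 (-0.44 ± 0.27), Nodal (-0.15 ± 0.20), the latency proteins Ltbp3 (0.43 ± 0.17) and Ltbp4 (0.19 ± 0.20) or the activin antagonist Fstl3 (0.00 ± 0.18). A second probe set of Ltbp3 was called higher (change 1.47, adjusted p 0.00138 over all probe sets). Of these 8 genes, 5 had a signal at or under the filter level on at least 1 of the 6 arrays. Within the list, the rises were those of Tgfb1 and of activators and integrins. At a filter on the 60th percentile, which leaves out the dim members, 1 gene of this list was called.

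The receptors and Smads themselves moved little: 3 of 12 tested genes rose and 1 fell, with a median of 0.03 that turned to -0.08 with median centring. Tgfbr1, the type I receptor, had signals of 1204, 1349 and 1311 on the untreated arrays and 1750.0, 1796 and 1638 on the ligand arrays. The groups did not overlap, and the change was 0.42 ± 0.07 (adjusted p 0.000575). Tgfbr2, the type II receptor, gave 3921, 4191 and 4123 on the untreated arrays and 4068, 3938 and 4275 on the ligand arrays, overlapping ranges and a change of 0.01 ± 0.08. Smad3 rose by 0.29 ± 0.07, whereas Smad2 (0.06 ± 0.09) and Smad4 (0.08 ± 0.07) did not pass. Trim33, a Smad-binding ubiquitin ligase, rose by 0.38 ± 0.08. The rises of Smad3 and Trim33 were lost with median centring (adjusted p 0.201 and 0.0652). The activin receptor Acvr1c fell by 0.57 ± 0.19 at adjusted p 0.0402, a call lost in 8 of the 16 alternatives. The activin receptors Acvr1b (-0.04 ± 0.08), Acvr2a (-0.11 ± 0.07) and Acvr2b (-0.11 ± 0.21), the co-receptor Eng (-0.21 ± 0.20) and the Smad anchor Zfyve9 (0.19 ± 0.11) did not pass.

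Genes that feed back on the pathway rose in 7 of 13 members, against 0 that fell, with a median of 0.27. Skil, which encodes SnoN, a repressor of Smad complexes, had signals of 922, 898 and 1036 on the untreated arrays and 2221, 2198 and 2514 on the ligand arrays. Each ligand array stood well above each untreated array, and the change of 1.27 ± 0.08 had an adjusted p of 3.74e-07, on 1 of 2 probe sets. Pmepa1, which sequesters receptor-regulated Smads, gave 198, 188 and 228 on the untreated arrays and 707, 616 and 569 on the ligand arrays, a 2.93-fold rise shared by all 3 of its probe sets. Bambi, a decoy receptor, and Tgif1, a Smad corepressor, also rose without overlap, by 0.85 ± 0.12 and 0.82 ± 0.09. Smad7, the inhibitory Smad, had signals of 190.4, 164 and 227 on the untreated arrays and 210.2, 219.6 and 249 on the ligand arrays. Its groups overlapped, and it did not pass, at 0.22 ± 0.15 and adjusted p 0.331. Smaller rises, Ski (0.31 ± 0.09), Tgif2 (0.27 ± 0.08) and Tsc22d1 (0.28 ± 0.08), lost their calls in 8, 4 and 3 of the alternatives. The genes of ubiquitin ligases that act on receptors and Smads, Smurf1, Smurf2, Nedd4l and Wwp1, had changes of -0.10 ± 0.25, -0.07 ± 0.09, 0.02 ± 0.07 and -0.05 ± 0.09, and the Smad phosphatase Ppm1a of -0.21 ± 0.08. None of these 5 passed. With median centring 4 members were called higher and 1 lower.

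TGF-beta target genes rose in 12 of 28 members, against 2 that fell, with a median of 0.25. Ccn1, a secreted matrix-bound protein, had signals of 212, 206 and 229 on the untreated arrays and 728, 709 and 743 on the ligand arrays. The replicates of each group lay within a narrow range, and all 4 of its probe sets rose, the one shown by 1.68 ± 0.09. Ccn2, its close relative, moved from 17.5, 22.6 and 47.4 to 167, 201 and 199, with 2 of the untreated arrays at or under the filter level. The AP-1 subunit Jun gave 354, 429 and 475 on the untreated arrays and 1177, 1125 and 1065 on the ligand arrays, a rise of 2.63-fold without overlap. Tgfbi, a matrix protein named for its induction by TGF-beta, had signals of 106, 101 and 107 on the untreated arrays and 162, 172 and 129 on the ligand arrays, which do not overlap, but its call was lost in 8 of the alternatives (adjusted p 0.0359 as tested). Cdkn2b, which encodes the cell cycle inhibitor p15 and is a textbook target that TGF-beta raises in epithelial cells, was lower with the ligand, at 1029, 854 and 1068 on the untreated arrays and 672, 659.8 and 567 on the ligand arrays. The change was -0.62 ± 0.09 (adjusted p 0.000253), and this direction and call held in all 16 alternatives. Cdkn1a, the p21 inhibitor, did not pass (-0.24 ± 0.09, adjusted p 0.0548) but passed in 4 alternatives. The other member that fell was Angptl4, a lipase inhibitor (-0.38 ± 0.10). Without untreated replicate 2, 7 members of the target list were called higher, and without ligand replicate 3, 4 were called lower.

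**Figure D2:**
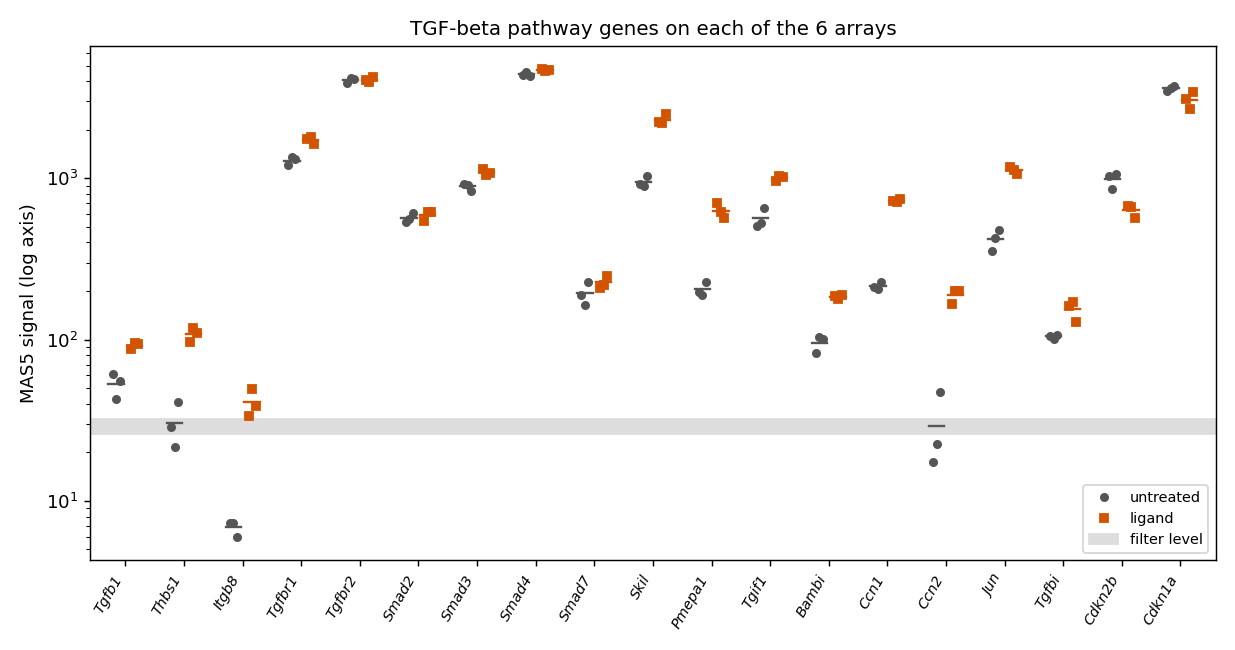
Signals of 19 TGF-beta pathway genes on a log axis, with 1 point per array (grey circles, 3 untreated; orange squares, 3 ligand) and a bar at each group's mean. The grey band is the filter level, 25.9 to 32.0. Skil, Pmepa1, Ccn1 and Jun show ligand points above all untreated points, Smad7, Tgfbr2 and Smad2 overlap, and Cdkn2b lies lower with the ligand.

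Ccn1 had the smallest p of the target list, and Cym and Fstl1, described next, were among the 3 largest rises of all genes, so the starts of these genes are shown here as sequence. Each run gives 250 bases before to 50 after the annotated start on the gene's own strand, from RefSeq on GRCm38.p6. Capitals mark matches, on either strand, to CAGAC (the core of the Smad binding element), GTCTAGAC (its palindromic form), GGAATG (bound by TEAD factors, the partners of YAP) or TGANTCA (bound by AP-1, where N is any base). The promoters of Cym and Fstl1 were set by size of change, and that of Ccn1 was added after its values were seen. Clu and Skil have no entry in the table used.
Cym, chr3:107221683-107221982, minus strand: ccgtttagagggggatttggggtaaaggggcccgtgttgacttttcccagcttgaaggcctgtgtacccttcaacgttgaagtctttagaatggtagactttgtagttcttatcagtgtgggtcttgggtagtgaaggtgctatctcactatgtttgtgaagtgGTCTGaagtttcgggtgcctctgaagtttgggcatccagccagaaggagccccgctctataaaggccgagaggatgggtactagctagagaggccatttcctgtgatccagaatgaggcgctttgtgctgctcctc
Fstl1, chr16:37776805-37777104, plus strand: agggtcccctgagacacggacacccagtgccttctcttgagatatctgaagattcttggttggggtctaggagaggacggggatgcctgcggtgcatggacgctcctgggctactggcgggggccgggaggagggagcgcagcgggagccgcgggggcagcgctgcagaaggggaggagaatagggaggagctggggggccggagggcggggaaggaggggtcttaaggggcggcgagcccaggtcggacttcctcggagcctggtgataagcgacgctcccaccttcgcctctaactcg
Ccn1, chr3:145649936-145650235, minus strand: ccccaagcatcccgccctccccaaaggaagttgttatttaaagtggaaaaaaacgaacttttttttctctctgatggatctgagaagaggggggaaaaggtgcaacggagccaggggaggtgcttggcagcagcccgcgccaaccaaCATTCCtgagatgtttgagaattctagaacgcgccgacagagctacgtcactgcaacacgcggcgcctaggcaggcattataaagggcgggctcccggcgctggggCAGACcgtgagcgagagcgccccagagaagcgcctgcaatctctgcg
The Cym window held 1 match, a CAGAC on the opposite strand at bases -86 to -82 counted from the start site as 0. The Fstl1 window held 0. The Ccn1 window held 2, CAGAC at bases 3 to 7 and GGAATG, on the opposite strand, at -103 to -98. These are letters and not sites shown to be bound. CAGAC occurred in 49.6% of the 32851 promoters of the table, in 48.0% of those of genes tested, in 47.6% of those of genes that rose and in 48.8% of those of genes that fell. In the same order the shares of GGAATG were 14.7%, 12.5%, 13.6% and 14.4%, those of TGANTCA 7.81%, 5.53%, 5.6% and 7.25%, and those of GTCTAGAC 0.213%, 0.262%, 0.29% and 0.0772%. These shares are descriptions, with no test.

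Cym, which encodes chymosin, the milk-clotting aspartic protease of the suckling stomach, gave the largest change by far. Its signals were 35.1, 20.2 and 35.2 on the untreated arrays and 13052, 14706 and 15123 on the ligand arrays. The untreated arrays lay near the filter level, 1 of them under it, and all 3 ligand arrays lay at 13052 or higher. The fold of 313 includes the 16 added to each signal, and over the alternatives the log2 change ran from 7.25 to 8.88. Fstl1, a secreted follistatin-related glycoprotein, moved from 26.3, 13.1 and 19.7, at or under the filter level on every untreated array, to 507, 507 and 427. Clu, the secreted chaperone clusterin, went from 82.0, 66.2 and 139 to 2841, 2954 and 2312, and all 4 of its probe sets rose. These 3 genes led the ranking by size, and their groups lie far apart.

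The remaining rises among the 15 largest joined secreted proteins, channels and receptors. Cfi, a protease that inactivates complement components, rose from 195, 221 and 228 to 1859, 2035 and 2019. Tnfrsf19, a receptor of the TNF family that marks intestinal stem cells, rose from 19.6, 24.2 and 57.5 to 223, 308 and 203, and untreated replicate 3 was the highest of its group. The same array was also the highest untreated one for Sertad4 (29.9, 28.8 and 78.2, against 265, 315 and 289 with the ligand) and Zfp618 (52.99, 31.6 and 67.6, against 346, 292 and 308), and for Gas1 and Ano1. Gas1, a membrane protein that binds Hedgehog and halts growth when overexpressed, rose 5.08-fold with 2 of 3 untreated arrays under the filter level. Mcpt2, a chymase known from mucosal mast cells, had signals of 14.8, 27.5 and 21.4 on the untreated arrays and 233, 85.5 and 243 on the ligand arrays. Its ligand replicate 2 stood apart at the low end, yet above the untreated arrays, and the change was 2.34 ± 0.31. Lect2, a secreted chemotactic protein (6.42, 5.13 and 5.14 against 156, 129.9 and 198), Scara3, a scavenger receptor (9.17, 4.55 and 11.99 against 147, 125 and 144), and Dynap (from 12.03 to 18.6 on the untreated arrays, against 167, 119.7 and 238) lay under the filter level on all untreated arrays and above it on all ligand arrays. Rbms3, an RNA-binding protein, had 26.4, 26.8 and 34.2 against 339, 351 and 289.6, and all 4 of its probe sets rose. Ano1, a calcium-activated chloride channel, rose 6.02-fold and Gkn3, a gastrokine found in stomach and intestinal stem cells, 5.84-fold.

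The 15 largest falls were mostly of enzymes and carriers. Rbp7, a cellular retinol-binding protein, had signals of 495, 466 and 302 on the untreated arrays and 69.5, 84.9 and 84.5 on the ligand arrays, a 4.49-fold fall. Slc2a2, the basolateral glucose transporter GLUT2 of enterocytes, gave 4649, 4282 and 3607 on the untreated arrays and 1391, 1211 and 1572 on the ligand arrays. Arg2, a mitochondrial arginase, gave 5037, 4724 and 3569.8 on the untreated arrays and 1255, 1391 and 1390.2 on the ligand arrays, a 3.24-fold fall. In these 3 genes untreated replicate 3 was the lowest untreated array and still above each ligand array. Adgrd1, an adhesion receptor, fell from 306, 246 and 204 to 19.8, 40.7 and 42.0, with ligand replicate 1 under the filter level. Acsm5, a mitochondrial acyl-CoA synthetase, was under that level on all ligand arrays (7.78, 0.768 and 11.3) and above it on all untreated arrays (55.4, 47.2 and 40.4). Cyp2d10 (4.11-fold) and Cyp2d34 (4.27-fold) belong to a cytochrome family of close copies, whose transcripts one probe set may not separate, so the members are uncertain. The others were Neu3, a sialidase (3.58-fold), Zg16, a lectin of goblet cell granules (3.41-fold), Abat, which degrades GABA (3.23-fold), the carboxylesterase Ces1f (3.17-fold), the axonemal dynein chain Dnah2 (3.05-fold), the cytochrome Cyp2u1 (2.96-fold), the peroxisomal thiolase Acaa1b (2.84-fold) and Pramel29 (2.73-fold).

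**Figure D3:**
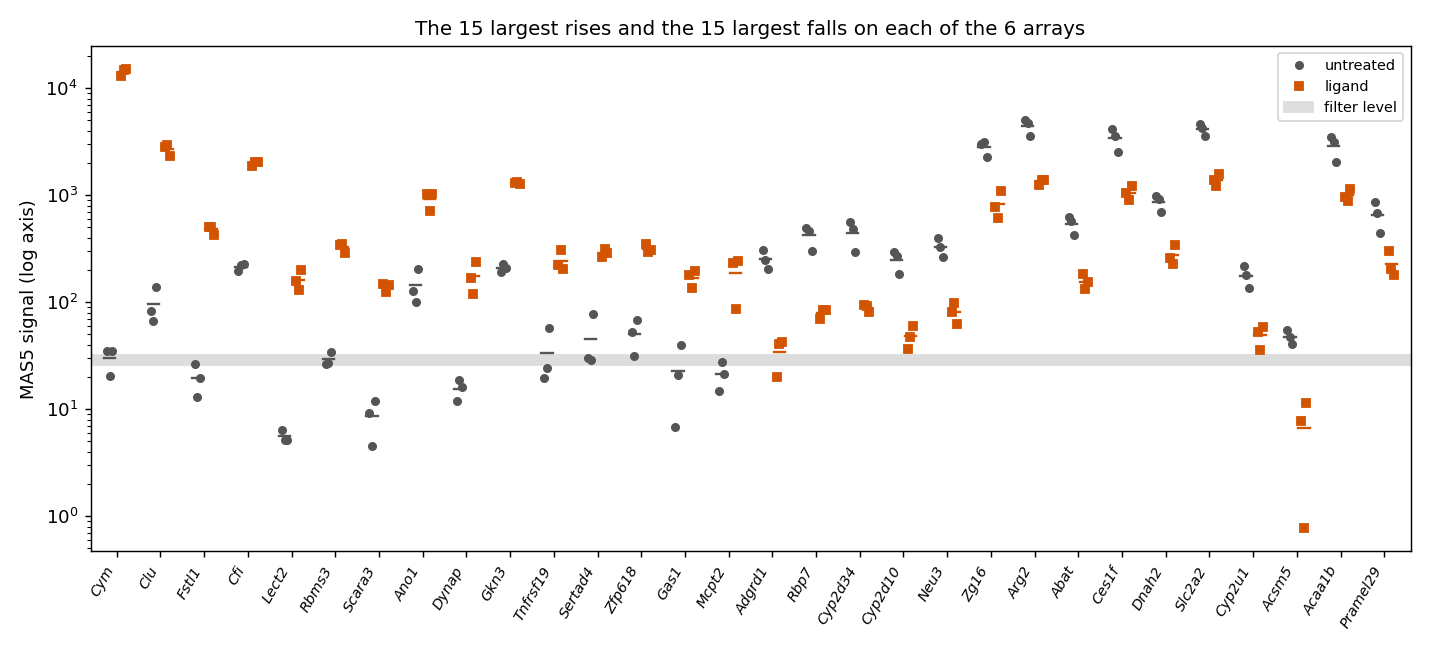
Signals on a log axis of the 15 genes that rose most (left) and the 15 that fell most (right), with 1 point per array, grey circles untreated and orange squares ligand, and bars at group means. The grey band is the filter level. Cym spans the widest gap, and several rises start at or below the band, whereas the falls start mostly far above it.

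Genes of BMP signalling, the sister branch of the family, rose in 8 of 20 members, against 1 that fell, with a median of 0.17. Smad5, which carries BMP signals, had signals of 421, 450.0 and 421 on the untreated arrays and 696, 719 and 789 on the ligand arrays and rose 1.68-fold. Rgmb, a BMP co-receptor, rose by 0.66 ± 0.08 and the type I receptor Acvr1 by 0.55 ± 0.08. Bmp2, a ligand made by differentiated epithelium, moved the other way, with 957, 934 and 952 on the untreated arrays and 650.3, 597 and 671 on the ligand arrays. Its change was -0.56 ± 0.08 without overlap. The rise of Acvr1 rested on 1 of 3 probe sets.

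Genes of epithelial-mesenchymal transition did not move together: 6 of 18 tested rose and 2 fell, and 8 further members lay under the filter. Besides Fstl1, the membrane metalloprotease Mmp14 rose by 0.61 ± 0.08. Prrx1, a transcription factor that drives mesenchymal character, fell, with 199, 185 and 131 on the untreated arrays and 58.3, 67.8 and 42.6 on the ligand arrays, and 4 of its 5 probe sets were called lower. Ovol1, a factor that keeps epithelial character, also fell, by 0.44 ± 0.08. Grhl2 and Esrp2, which likewise keep epithelial character, were among the 6 that rose, as were Fn1 and Itgb6. These were named after their values were seen. Cdh1, which encodes the epithelial cadherin, had 9320.0, 9134 and 9602 on the untreated arrays and 9735, 10418 and 8050.4 on the ligand arrays and a change of 0.00 ± 0.10. Epcam, an epithelial surface protein, gave 11279.9, 11649 and 10745 on the untreated arrays and 10239, 11595 and 12630.0 on the ligand arrays (0.03 ± 0.09). Vim, the mesenchymal filament vimentin, gave 181, 197 and 235 on the untreated arrays and 218, 256 and 254 on the ligand arrays (0.23 ± 0.14, adjusted p 0.262). The groups overlap for these 3 genes. With median centring 3 members of the list were called higher.

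Extracellular matrix and proteolysis genes rose in 15 of 28 members, against 0 that fell, with a median of 0.46. Lama3, the laminin chain of epithelial anchoring structures, had signals of 46.4, 42.4 and 47.2 on the untreated arrays and 198, 172 and 159.7 on the ligand arrays, a 3.13-fold rise. Mmp7, the metalloprotease matrilysin made by Paneth cells, rose 2.22-fold from 1139.5, 1535 and 1672 to 2752, 3307 and 3594. Serpinb5, a serpin of epithelial cells, rose 1.84-fold on all 4 probe sets. Without ligand replicate 1 the count of the list was 9. Integrin and focal adhesion genes rose in 10 of 21 members, against 0 that fell (median 0.25), among them Flna, an actin crosslinker (1.13 ± 0.16), and Parva, an adaptor of integrin-linked kinase (0.65 ± 0.08). Contractile and cytoskeletal genes rose in 5 of 17 members, against 1 that fell. Tuba1a, an alpha-tubulin, led these with 575, 713 and 794 on the untreated arrays and 1735, 1895 and 1598 on the ligand arrays (1.32 ± 0.12), followed by Cald1, an actin and myosin regulator (0.96 ± 0.14), Tubb2a (0.47 ± 0.09) and the non-muscle myosin Myh9 (0.32 ± 0.08). Cnn3, a calponin (0.31 ± 0.08), rose and Myl9, a myosin light chain (-0.27 ± 0.09), fell. With median centring the integrin list held 6 rises and the cytoskeletal list 3.

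Hippo-YAP genes, a list of YAP targets and some pathway components, rose in 13 of 19 members, against 2 that fell, with a median of 0.56. YAP is the effector of the Hippo pathway. The rises included the components Yap1 itself, Wwtr1, which encodes its relative TAZ, and the DNA-binding partner Tead1. These components were named after their values were seen. Ccn1 and Ccn2 belong to this list as well as to the TGF-beta targets. Ajuba, a LIM protein that restrains Hippo kinases, had signals of 244, 342 and 430.1 on the untreated arrays and 922, 753 and 799.8 on the ligand arrays (1.28 ± 0.16), and Amotl1, an angiomotin, rose by 1.21 ± 0.18. Birc5, known chiefly as a mitotic gene, and the stress gene Gadd45b (-0.43 ± 0.14) were the members that fell (-0.37 ± 0.08 for Birc5). Without untreated replicate 2 the count of rises was 8, and the count of falls was 1 without untreated replicate 1 or 3 or ligand replicate 2. Genes of the fetal-like and regenerating epithelium, a state the gut lining passes through after injury, rose in 16 of 22 members, against 1 that fell, with a median of 0.77, the highest of the 52 lists. Anxa1, an annexin, had signals of 376, 462 and 816 on the untreated arrays and 2413, 2423 and 2422 on the ligand arrays, the ligand arrays being nearly equal and untreated replicate 3 the highest of its group. S100a6, a calcium-binding protein, rose by 0.90 ± 0.12, and Krt7, a keratin of ducts and fetal gut, by 0.73 ± 0.08. The member that fell was Mal2, a protein of transcytosis (-0.46 ± 0.10). Over all alternatives 13 to 17 members of this list were called higher.

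Intestinal stem cell markers rose in 18 of 28 members, against 0 that fell, with a median of 0.57 and non-overlapping groups in 20. Lgr5, the R-spondin receptor that marks crypt base stem cells, had signals of 2224, 2566 and 2835 on the untreated arrays and 4043, 4196 and 4469.7 on the ligand arrays. Each ligand array was brighter than each untreated one, and the change was 0.74 ± 0.08 (adjusted p 3.57e-05), on 1 of 2 probe sets. Ascl2, a transcription factor of these cells, gave 491, 576 and 600.1 on the untreated arrays and 1196, 1246 and 1257 on the ligand arrays, a 2.19-fold rise on all 3 probe sets. Rnf43, a ubiquitin ligase that removes Wnt receptors, rose 2.68-fold and Msi1, an RNA-binding protein, 2.16-fold. Olfm4, a secreted glycoprotein of these cells, gave 12404, 13284 and 12895 on the untreated arrays and 13159, 15728 and 15058 on the ligand arrays, with overlapping groups and a change of 0.18 ± 0.12 that did not pass. In whole organoids a larger share of a cell type and more RNA per cell cannot be told apart, here and for the marker lists that follow. Counts of rises ran from 16 to 20 over the alternatives.

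Wnt pathway genes and targets, which overlap with the stem cell list, rose in 15 of 25 members, against 2 that fell, with a median of 0.46. Sp5, a transcription factor induced directly by Wnt, had signals of 79.3, 106 and 130.1 on the untreated arrays and 428, 429 and 451 on the ligand arrays, a 3.79-fold rise. Ephb3, the receptor that positions Paneth cells, rose 2.46-fold. Smaller rises were those of Ccnd1, cyclin D1 (0.46 ± 0.06), and Myc (0.33 ± 0.08), the latter lost with median centring (adjusted p 0.136). Fzd5, a Wnt receptor of Paneth cells, fell by 0.59 ± 0.07 and Tcf7l2, the main DNA-binding partner of beta-catenin in this tissue, by 0.33 ± 0.07. Notch pathway genes rose in 8 of 20 members, against 0 that fell (median 0.28). The receptors Notch1 (0.82 ± 0.13) and Notch2 (0.64 ± 0.12) and Lfng, a modifier of Notch receptors (0.91 ± 0.16), rose, and so did genes that Notch represses, Atoh1, the switch to secretory fate (279, 340.1 and 346 on the untreated arrays and 432, 477 and 549.8 on the ligand arrays; 0.57 ± 0.12), and Neurog3, which starts enteroendocrine fate (0.67 ± 0.11). Hes1, the main Notch target of this tissue, had 989, 869.8 and 945 on the untreated arrays and 1012, 1065 and 1064 on the ligand arrays, ranges that do not overlap, yet did not pass (0.16 ± 0.07, adjusted p 0.134).

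Cell cycle genes were divided by phase. Replication and G1/S genes rose in 14 of 33 members, against 1 that fell (median 0.20), while mitosis genes rose in 1 of 29 and fell in 8 (median -0.13). Cdc6, which loads the replicative helicase, had signals of 441, 491 and 478 on the untreated arrays and 695, 699 and 678 on the ligand arrays (0.54 ± 0.08), and Mcm2, a subunit of that helicase, rose by 0.46 ± 0.07. Mcm3 (0.33 ± 0.06) and the uracil glycosylase Ung (0.50 ± 0.09) rose as well. Birc5, which encodes survivin, Hmmr, a spindle protein (-0.35 ± 0.08), and Nek2, a centrosomal kinase (-0.28 ± 0.07), fell, and Cenpf, a kinetochore protein, rose (0.26 ± 0.06). Mki67, the marker of dividing cells, had 3614, 3802 and 3618 on the untreated arrays and 3640.2, 3438 and 4025 on the ligand arrays and a change of 0.01 ± 0.08. The replication gene that fell was Rrm2, a ribonucleotide reductase subunit (-0.33 ± 0.10). These differences are small. Hmmr, Nek2, Cenpf, Mcm2 and Mcm3 also had probe sets that were not called. Those included changes of -0.03 for Hmmr, 0.10 for Nek2 and -0.19 for Cenpf. With median centring the replication list held 4 rises and 2 falls, and the falls of the mitosis list numbered 3 to 5 when any of the 6 arrays was left out (3 without untreated replicate 3). No test of the difference between phases was run. Among G1 regulators, Rb1, the retinoblastoma protein, had signals of 1915, 1728 and 1668 on the untreated arrays and 1005, 948 and 840.0 on the ligand arrays, a 1.89-fold fall without overlap, called on 1 of its 2 probe sets. Cdk6, a kinase that phosphorylates that protein, rose 1.74-fold from 2046, 2532 and 2640.2 to 4209.5, 4385 and 3925. Together with Cdkn2b, whose product inhibits Cdk6, and Ccnd1, these were the members with the smallest p. The Myc family genes Mycl (0.76 ± 0.15) and Mycn (0.58 ± 0.13) rose as well as Myc. With median centring 4 members of this list were called lower.

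Absorptive enterocyte markers fell in 27 of 42 members, against 1 that rose, with a median of -0.49 and non-overlapping groups in 33. Besides Slc2a2, the fructose transporter Slc2a5 had signals of 1159, 1143 and 952 on the untreated arrays and 421, 473 and 399.8 on the ligand arrays, a 2.46-fold fall. Enpep, a brush border aminopeptidase, gave 5802, 5855 and 4973 on the untreated arrays and 2205, 2135 and 2727 on the ligand arrays, and Khk, the first enzyme of fructose breakdown, fell 2.35-fold. The member that rose was Lct, the lactase of the brush border, with 365, 362 and 386 on the untreated arrays and 768, 768 and 628 on the ligand arrays, a 1.90-fold rise without overlap. Alpi, intestinal alkaline phosphatase, had 9154, 9617 and 8579 on the untreated arrays and 7019.9, 7048 and 8604 on the ligand arrays and did not pass (-0.28 ± 0.10, adjusted p 0.0571). Of the 27 fallen members, untreated replicate 3 was the lowest untreated array in 23, and over all 1212 genes that fell in 60.4%. It was the highest in 47.6% of the 1911 genes that rose. Without that array 26 enterocyte markers fell. Of 18 villus tip genes, 4 were higher and 5 lower, and over the alternatives 2 to 5 and 5 to 7. The cholesterol transporter Npc1l1 (-0.98 ± 0.10) and the transcription factor Klf4 (-0.44 ± 0.07) fell, and the phosphate transporter Slc34a2 (0.77 ± 0.10) and the receptor Egfr (0.54 ± 0.09, on 1 of 5 probe sets) rose. The other calls were Pmp22 (0.90 ± 0.21) and the ecto-nucleotidase Nt5e (0.90 ± 0.24), which rose, and Creb3l3 (-0.64 ± 0.13), the apolipoprotein Apoa1 (-0.52 ± 0.10) and Serpinb6a (-0.33 ± 0.08), which fell.

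Genes for nutrient handling, which share members with the enterocyte list, also fell more often than they rose. Fat absorption and lipoprotein genes fell in 18 of 27 members, against 0 that rose (median -0.45). Mttp, which loads lipid onto apolipoprotein B, had signals of 6867, 6657 and 5999 on the untreated arrays and 3449, 3213 and 3395 on the ligand arrays, a 1.93-fold fall, and Mogat2, which rebuilds triglycerides from absorbed fat, fell 2.07-fold from 2501, 2339 and 1905 to 1111, 1031 and 1072. Untreated replicate 3 was the lowest untreated array for all 18, and without it 18 were called. Sugar, amino acid and peptide transporters fell in 9 of 25 members, against 1 that rose, among them Slc6a19, the main neutral amino acid carrier (-1.02 ± 0.11), and Slc3a1, the heavy chain of the cystine carrier (-0.88 ± 0.08), while Slc7a5, a carrier of large neutral amino acids, rose (0.27 ± 0.07). Targets of PPAR and genes of fatty acid oxidation fell in 15 of 25 and rose in 1, led by Acaa1b, the coactivator Ppargc1a (-0.90 ± 0.10, on all 5 probe sets), Acot2 (-0.68 ± 0.08) and the dehydrogenase Acadl (-0.60 ± 0.07), and the pantetheinase Vnn1 rose (0.54 ± 0.14). Cholesterol and fatty acid synthesis genes fell in 6 of 25 and rose in 1, including Insig1, a sterol sensor partner (-0.55 ± 0.07), Lss (-0.37 ± 0.07), Scd1 (-0.47 ± 0.10) and Me1, malic enzyme (-0.93 ± 0.18), and the sterol reductase Tm7sf2 rose (0.24 ± 0.08).

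Drug, bile acid and xenobiotic metabolism gave the highest share of falls of any list, 40 of 46 members (87.0%), against 1 that rose, with a median of -0.81 and non-overlapping groups in 43. This rank is among lists whose members were chosen with earlier results of these data known. Ephx1, a microsomal epoxide hydrolase, had signals of 2596, 2468 and 2147 on the untreated arrays and 1156, 1159 and 1243 on the ligand arrays, a 2.01-fold fall. Sult1d1, a sulfotransferase, gave 4341, 3770.0 and 3722 on the untreated arrays and 1892, 1711 and 1472 on the ligand arrays, and Sult1b1, its relative, fell 1.83-fold. The riser was Cyp27a1, a mitochondrial sterol hydroxylase (0.51 ± 0.14), whose call was lost with quantile normalization, with median centring, without untreated replicate 1 and without ligand replicate 2. The falls joined cytochromes, esterases, glucuronosyltransferases, sulfotransferases and export pumps. Untreated replicate 3 was the lowest untreated array in 32 of these 40 genes, and without it 40 were called lower. Retinoid and alcohol metabolism genes fell in 14 of 22 members, against 1 that rose (median -0.51). After Rbp7, the dehydrogenases Rdh7 (2218, 2085 and 1358 against 698, 658 and 819), Adh4 (2754, 2197 and 1861 against 920.3, 786 and 1044) and Aldh1a7 (-0.85 ± 0.09) fell, and Rdh10, which makes retinal, rose (0.79 ± 0.09). Targets of NRF2 and the aryl hydrocarbon receptor, which respond to oxidants and ring compounds, fell in 7 of 21 and rose in 0, including Gsr (-0.48 ± 0.07), Srxn1 (-0.47 ± 0.07), Nqo1 (-0.65 ± 0.10) and Tiparp (-0.54 ± 0.08). Several of these families hold close copies, such as the Sult1, Ces1, Ces2 and Cyp2 genes, and counts over them may hold the same transcript more than once.

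**Figure D4:**
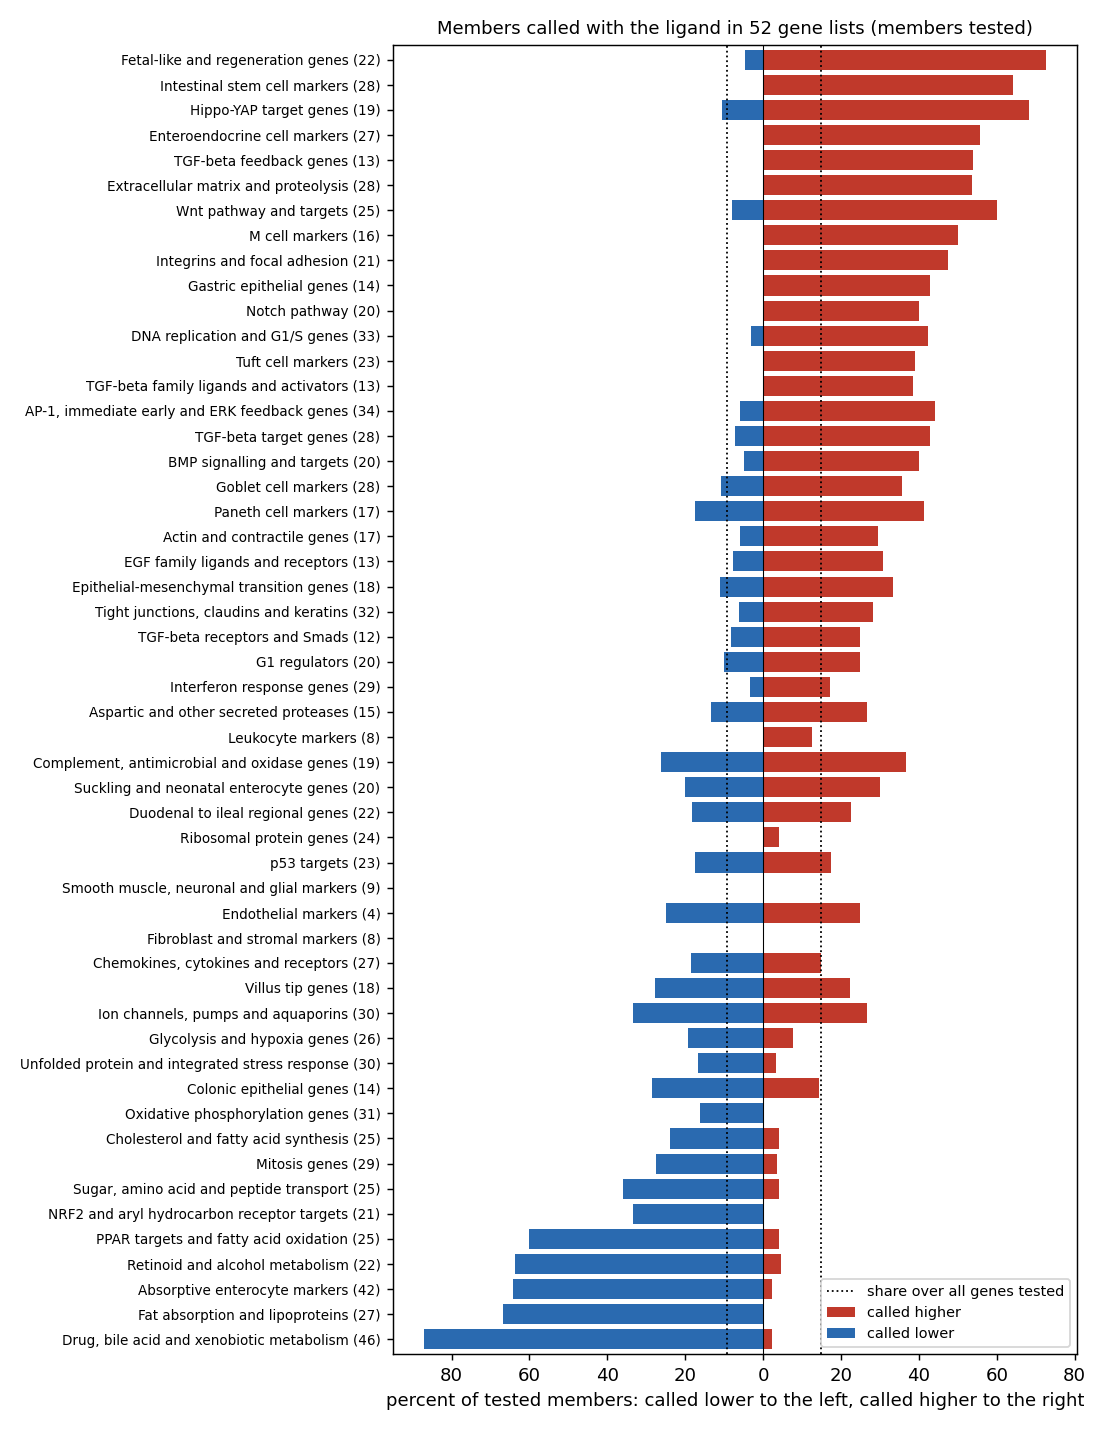
Percent of tested members called lower (blue, leftwards) and higher (red, rightwards) with the ligand in each of 52 gene lists, ordered by the difference, with the number tested in brackets. Dotted lines mark the shares over all genes tested, 9.37% lower and 14.8% higher. Fetal-like, stem cell and Hippo-YAP lists lie at the top, and drug metabolism, fat absorption, enterocyte and retinoid lists at the bottom.

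Markers of secretory and rarer lineages rose more often than they fell. Enteroendocrine markers rose in 15 of 27 members, against 0 that fell (median 0.39). Gip, the incretin hormone, had signals of 2047, 2087 and 2461 on the untreated arrays and 3679, 4226 and 4566 on the ligand arrays (0.91 ± 0.09), Chga, a granule protein, rose by 0.54 ± 0.12, the transcription factor Nkx2-2 by 0.84 ± 0.10 and Reg4 by 0.51 ± 0.09. With median centring 9 members were called higher. Tuft cell markers rose in 9 of 23 and fell in 0 (median 0.54). Dclk1, the kinase that marks these cells, had signals of 75.2, 75.0 and 93.3 on the untreated arrays and 202, 168 and 212 on the ligand arrays (1.11 ± 0.15), Rgs13, a regulator of G protein signals, gave 106, 134 and 195 on the untreated arrays and 526, 516 and 308 on the ligand arrays, and Nrep (1.59 ± 0.18) and the actin bundler Avil (1.06 ± 0.13) rose too. M cell markers rose in 8 of 16 and fell in 0, with Marcksl1 (1.21 ± 0.09), the oxidase subunit Cyba (0.92 ± 0.10) and the decoy receptor Tnfrsf11b (13.5, 12.8 and 27.2 against 92.0, 99.7 and 50.4) next to Clu.

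Goblet and Paneth cell markers were mixed. Goblet markers rose in 10 of 28 members, against 3 that fell (median 0.15). The lectin Zg16 fell most, with 2981, 3167 and 2282 on the untreated arrays and 775, 617 and 1087 on the ligand arrays, whereas Muc2, the main secreted mucin, had 2324, 2535 and 2433 on the untreated arrays and 2224, 2199.6 and 2596 on the ligand arrays and a change of -0.06 ± 0.08 that did not pass. The transcription factor Foxa3 (0.62 ± 0.10) and the glycosyltransferase Galnt12 (0.55 ± 0.09) rose, and Clca1 (-0.77 ± 0.15), secreted with mucus, and Mptx1 (-0.53 ± 0.17) fell. Paneth markers rose in 7 of 17 and fell in 3. Among the 7 was the lectin Reg3b, a relative of Reg3g, named after its values were seen. Sox9, a factor these cells need, rose by 0.98 ± 0.09 and Mmp7 rose as above, while the antibacterial lectin Reg3g fell, with 869.7, 807 and 689.8 on the untreated arrays and 309, 369 and 403 on the ligand arrays, as did Fzd5 and Guca2b, the hormone uroguanylin (-0.55 ± 0.10). Lyz1, the Paneth lysozyme, did not pass on the probe set used (-0.09 ± 0.18), nor on the other pair, whose mean signals were 14860 and 15990 in untreated and 15620 and 16970 in ligand arrays.

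Genes of neighbouring organs and gut regions were measured too. Gastric epithelial genes rose in 6 of 14 tested members, against 0 that fell, while 11 more lay under the filter. Besides Cym and Gkn3, the annexin Anxa10 had signals of 652, 636 and 1107 on the untreated arrays and 2174, 1786 and 2315 on the ligand arrays, and Cblif, the vitamin B12 carrier of the stomach, moved from 15.6, 4.60 and 6.09 to 53.02, 78.2 and 58.6. Cblif passed the filter through its ligand arrays alone. Colonic genes fell in 4 of 14 and rose in 2, the share that rose (14.3%) being close to that over all genes. Muc3, a membrane mucin also made by enterocytes, gave 4507, 4565 and 4594 on the untreated arrays and 2275, 2191 and 2588 on the ligand arrays, and the esterase Ces2g (-0.98 ± 0.08), the chloride exchanger Slc26a3 (-0.75 ± 0.12) and the glycosyltransferase B3gnt7 (-0.53 ± 0.10) fell. Mettl7b (0.71 ± 0.14) and the peptide hormone Pyy (0.73 ± 0.21) rose, a count of 2 that was 1 when any untreated array or ligand replicate 1 was left out. Regional genes of the small intestine were mixed, 5 of 22 higher and 4 lower. Gata5 (1.01 ± 0.09), Bex1 (1.13 ± 0.12), Sox4 (0.60 ± 0.08) and the duodenal iron reductase Cybrd1 (0.34 ± 0.08) rose with Lct. The bile acid transporter subunit Slc51b (-0.98 ± 0.15), the guanylin receptor Gucy2c (-0.35 ± 0.09) and Gata4 (-0.30 ± 0.09) fell, and Hnf4g, a nuclear receptor of enterocytes, fell on all 3 probe sets, with 692, 605 and 481 on the untreated arrays and 292, 309 and 249.9 on the ligand arrays. Genes of the suckling enterocyte rose in 6 of 20 and fell in 4. Cym and Lct, both known from suckling animals, rose, and Arg2, Neu3, the cubilin partner Amn (-0.74 ± 0.09) and the immunoglobulin transporter Pigr (-0.28 ± 0.09) fell.

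**Figure D5:**
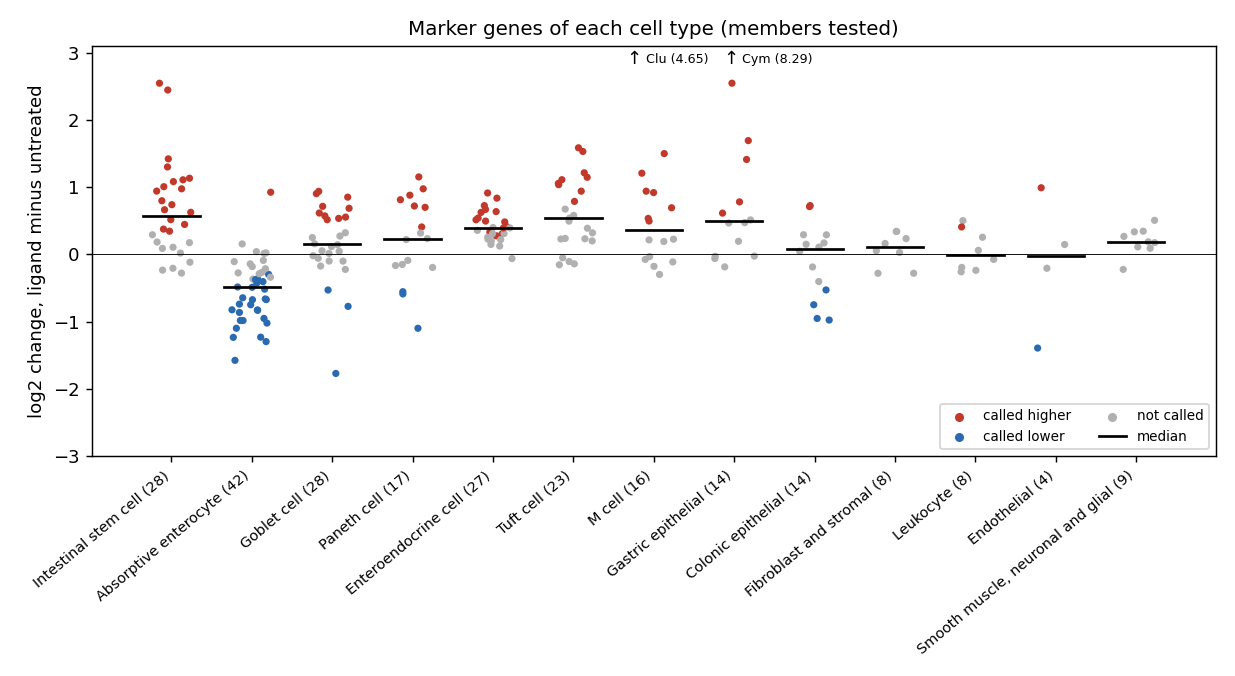
Log2 change, ligand minus untreated, of each tested marker of 13 cell types or organs (1 point per gene; red called higher, blue called lower, grey not called; black bar, median). Cym, at 8.29, and Clu, at 4.65, lie above the axis. Stem cell, enteroendocrine and tuft cell medians lie above 0, at 0.57, 0.39 and 0.54, and the enterocyte median lies at -0.49.

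Immediate early and ERK feedback genes rose in 15 of 34 members, against 2 that fell (median 0.25), and in 7 with median centring. After Jun, the feedback gene Phlda1 rose by 0.63 ± 0.09 and the AP-1 subunit Fosl2 by 0.36 ± 0.07, on 1 of its 2 probe sets, whereas Klf4 and the phosphatase Dusp5 (-0.66 ± 0.14) fell. Of 13 genes of the EGF family, 4 rose and 1 fell (median 0.01), and with median centring 2 and 2 (median -0.11). Egfr, the ligand Hbegf (0.41 ± 0.10) and the receptor inhibitors Errfi1 (0.32 ± 0.07) and Lrig1 (0.35 ± 0.11) rose, and Lrig3 fell by 0.41 ± 0.08. Interferon response genes rose in 5 of 29 and fell in 1, close to the share over all genes, with Irf1 (0.67 ± 0.07), Ifit2 (1.39 ± 0.20), Ifi27 (0.60 ± 0.09), Rsad2 (0.93 ± 0.16) and Rtp4 (1.25 ± 0.39) higher and Oas1a (-0.37 ± 0.10) lower. Of 23 targets of p53, 4 were higher and 4 lower, and with median centring 2 and 6. These are 17.4% each way as tested, against 14.8% higher and 9.37% lower over all genes. Plk2, a stress kinase, rose 2.45-fold and Ddit4 by 0.60 ± 0.09, and the death receptor Fas fell by 0.98 ± 0.12, from 122, 113 and 106 to 47.4, 51.4 and 51.0. Btg2 rose by 0.27 ± 0.07, a call lost with median centring, and Trp53inp1 by 0.33 ± 0.09. The death gene Pmaip1 (-0.21 ± 0.06), Gadd45b and Ccng1 (-0.20 ± 0.07) fell with Fas, and this count of 4 was 1 without untreated replicate 1 or ligand replicate 2 and 2 without untreated replicate 3. Genes of the unfolded protein and integrated stress responses fell in 5 of 30 and rose in 1, led by Trib3 (-0.64 ± 0.09), Chac1 (-0.48 ± 0.08), Mthfd2 (-0.44 ± 0.08), Creb3l3 and Ddit3 (-0.49 ± 0.11), and the goblet cell sensor Ern2 rose (0.52 ± 0.13). Without ligand replicate 3, 9 members of the stress list were called lower.

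Chemokine, cytokine and receptor genes rose in 4 of 27 members, against 5 that fell. The share that rose, 14.8%, was that over all genes, and 18.5% fell, against 9.37% over all genes. Lect2, counted among the rises, would not have passed the filter without its ligand arrays. Il1rn, the antagonist of interleukin-1, had signals of 187, 195 and 289 on the untreated arrays and 562, 426 and 515 on the ligand arrays (1.13 ± 0.16), while Il18, an epithelial cytokine, gave 1274, 1086 and 1033 on the untreated arrays and 552, 467 and 698 on the ligand arrays (-0.98 ± 0.12). Ccl25, a chemokine that draws T cells to the small intestine, fell by 0.49 ± 0.10, on 1 of 2 probe sets. Besides Lect2, the chemokines Ccl6 (0.85 ± 0.20) and Ccl9 (0.53 ± 0.13) rose, and Il15 (-0.43 ± 0.09), Csf2 (-1.41 ± 0.31) and the TNF receptor Tnfrsf1a (-0.30 ± 0.09) fell. Complement, antimicrobial and oxidase genes rose in 7 of 19 and fell in 5. The lectin Reg3b, a relative of Reg3g and Reg3a, was among the 7 that rose, as were Reg4, Tlr2, Cfb and Lyz2. Reg3b, Tlr2 and Cfb were named after their values were seen. Cfi and Clu, 2 proteins that limit complement, rose, and the antibacterial lectins Reg3g and Reg3a fell, the latter with 3478, 3459.8 and 2313 on the untreated arrays and 950.2, 1266 and 1448 on the ligand arrays, as did Reg1 (-0.58 ± 0.13), the protease inhibitor Slpi (-1.06 ± 0.22) and Pigr. Among proteases and their inhibitors, the membrane aspartic proteases Bace2 (1.17 ± 0.13) and Bace1 (0.75 ± 0.12) rose with Cym, and the trypsin inhibitor Spink1 fell by 0.70 ± 0.13. The membrane serine proteases Tmprss4 (0.33 ± 0.07) and Prss8 (-0.24 ± 0.07) were called higher and lower, in that order. In all, 4 of 15 members of that list rose and 2 fell, and the falls numbered 1 without untreated replicate 1 or 2 or ligand replicate 1, and 5 with median centring.

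Ion channel, pump and aquaporin genes rose in 8 of 30 members, against 10 that fell. Ano1 had signals of 126, 100.4 and 203 on the untreated arrays and 1029, 712 and 1020.1 on the ligand arrays, and the potassium channel Kcnn4 rose by 0.70 ± 0.08. The anion exchanger Slc26a6 fell by 1.11 ± 0.11 and the water channel Aqp11 by 0.79 ± 0.09. Junction and keratin genes rose in 9 of 32 and fell in 2, and with median centring in 5 and 3, with a median of 0.07 that turned to -0.04. Of the claudins, Cldn8, a sealing claudin, had 131, 126 and 114 on the untreated arrays and 267, 303 and 317 on the ligand arrays and Cldn15, a claudin that forms cation pores in the small intestine, 3557, 3579.7 and 3219 on the untreated arrays and 2294, 2245 and 2433 on the ligand arrays. The groups of each do not overlap, at changes of 1.16 ± 0.12 and -0.57 ± 0.07. The other claudin that fell was Cldn3 (-0.40 ± 0.09). The desmosomal plakophilin Pkp1 rose by 0.67 ± 0.09.

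Of 24 ribosomal protein genes 1 was called, Rps24, on a probe set (345, 295 and 370.1 on the untreated arrays and 822, 879.6 and 716 on the ligand arrays) that alone among its 6 passed, while 4 of the others had mean untreated signals of 13920 or higher. Rps7 (0.11 ± 0.11), Rps4x (0.09 ± 0.10) and Rpl10a (-0.09 ± 0.10), the next members by p, did not pass. Oxidative phosphorylation genes fell in 5 of 31 and rose in 0, by small amounts: Sdhb by 0.37 ± 0.08, Sdhc by 0.27 ± 0.06, Ndufs1 by 0.26 ± 0.07, Ndufa9 by 0.25 ± 0.07 and Ndufb3 by 0.21 ± 0.07. That count was 2 without untreated replicate 2 or ligand replicate 1, 3 without untreated replicate 1 and 13 without ligand replicate 3. Glycolysis and hypoxia genes fell in 5 of 26 and rose in 2. The exception in size was Fbp1, an enzyme of gluconeogenesis, which fell 2.08-fold with 6057, 6322 and 4619 on the untreated arrays and 2813, 2580.0 and 2677 on the ligand arrays. Pfkp, a glycolytic kinase, fell by 0.36 ± 0.07, as did Hk1 (-0.29 ± 0.07), Ndrg1 (-0.38 ± 0.10) and Pdk1 (-0.34 ± 0.11), and Hk2 (0.30 ± 0.07) and Car12 (0.60 ± 0.15) rose. Without ligand replicate 3, with the replicate number as a block or with quantile normalization, 8 members were called lower, and with median centring 9, with 1 higher.

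Markers of cells outside the epithelium were mostly under the filter. Of 19 fibroblast and stromal markers with a probe set, 8 were tested and 0 were called, and their summed signal ran from 554.1 to 624.8 on untreated and from 564.6 to 683.6 on ligand arrays, with 11 and 12 under the filter level on all arrays of the group. Next to Vim, the smallest p-values were those of Col6a2 (-0.28 ± 0.16), Sparc (0.34 ± 0.21) and Pdgfra (0.34 ± 0.27). Of 23 leukocyte markers 8 were tested and 1 was called, Lyz2 (1110.0, 1329.5 and 1197 on the untreated arrays and 1425, 2144 and 1364 on the ligand arrays), a lysozyme that Paneth cells also make. Its call was lost in 10 of 16 alternatives, and Laptm5 (-0.24 ± 0.15), Cd8a (0.50 ± 0.41) and Ms4a1 (0.26 ± 0.21) did not pass, while without ligand replicate 3, 2 members were called. The summed leukocyte signal, most of it Lyz2, ran from 1597 to 1792 and from 1797 to 2682, and 16 and 15 of the 23 were under the filter level on every untreated and every ligand array. Of 15 endothelial markers 4 were tested: Esam, an adhesion molecule, rose (151, 144 and 190.0 on the untreated arrays and 313, 366 and 328 on the ligand arrays), Lyve1, a lymphatic receptor for hyaluronan, fell (768, 729 and 661 on the untreated arrays and 279, 231 and 284 on the ligand arrays), and Eng and Kdr (0.15 ± 0.26) did not pass. The summed endothelial signal was 1098 to 1123 in untreated and 831.2 to 863.8 in ligand arrays, with 12 and 11 of the 15 under the filter level on all arrays of the group. Most of these sums was Lyve1 (means of 719.2 untreated and 264.5 ligand) and Esam (161.7 and 335.6), which moved in opposite directions. Of 15 smooth muscle, neuronal and glial markers 9 were tested and 0 called, including Acta2 (0.27 ± 0.16), Snap25 (0.51 ± 0.18), Elavl3 (0.34 ± 0.23) and Gfap (0.35 ± 0.29), with sums of 399.5 to 470.5 and 489.2 to 560.4, and 6 and 5 under the filter level throughout. The part of such cells in the changes above was not tested.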

How the data were processed

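RNA of 9 samples was hybridised to 1 array each. The deposited values are MAS5 intensities on a linear scale, per the submitters' processing notes, and every array has a trimmed mean of about 350. Of 45101 probe sets, 34945 carry 1 gene symbol in the platform annotation, 932 several and 9160 none, and 64 control probe sets were left out. Intensities of 9 arrays were taken as log2(signal + 16), genes were kept where 1 probe set exceeded the 40th percentile of the array on 3 or more arrays, and the brightest probe set stood for each gene (those ending in _x_at only where no other was kept). limma 3.58.1 in R 4.3.3 fitted a mean per group over all 9 arrays (lmFit, eBayes with an intensity trend, 6 residual degrees of freedom), and the contrast was ligand minus untreated. The p-values were adjusted by the Benjamini-Hochberg method over 12941 genes. Tables and figures used Python 3.11.15, pandas 2.3.3 and matplotlib 3.10.9. Tested on simulated data of 12941 genes for this comparison, the fit called 53.7% of genes changed 1.5-fold, 85.1% changed 2-fold and 98.5% changed 4-fold. In that order 67, 67 and 66 genes were changed, far fewer than were called in the data. The adjustment of p-values depends on that number, so these shares need not hold for the data.

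Named genes were the 15 largest rises and falls among calls without overlap, the members of the ligand, receptor and feedback lists of TGF-beta, a fixed set of pathway and cell type markers, and the 4 members of every other list with the smallest p. The gene lists and this rule were chosen with earlier results of these data known. Replicate numbers were checked for pairing: deviations from group means correlated at 0.04, -0.03 and -0.06 between same-numbered arrays, so they were not taken as pairs. The number of arrays limits the precision, and the sources used here give neither the inhibitor's name nor scan dates or batches. The alternatives were other offsets, filters, normalizations, ways of joining probe sets, variance priors, a fit of 6 arrays, a replicate block and leaving out each array.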

Additional observations from a re-analysis of the deposited data

Results flagged for a closer look

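Probe sets outside the gene comparison also carried signal above the untreated level. Of 4141 probe sets with no gene symbol in the annotation used, 205 were called higher with the ligand and 77 lower. Of 625 probe sets with several symbols, 21 were called higher and 17 lower. Each of these shares was below that over the genes tested, 14.8% higher and 9.37% lower. The calls came from a separate limma fit of the same form to these 4766 probe sets alone, at Benjamini-Hochberg adjusted p under 0.05. The largest rise among all of these was 2.45 on the log2 scale and the largest fall -1.56, and none of them was counted in the lists.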

How the results depend on the processing

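With the replicate block, 3007 genes were called, 1827 higher and 1180 lower, against 3123, 1911 and 1212 without it, and it moved no count over all genes by more than 1.5 times. Median centring of each array left 989 genes called higher and 1731 lower, and with log2(signal + 64) 687 genes were called at 1.5-fold or more, against 1109. Leaving out each array in turn, which leaves a group of 2 whose spread is pooled with the other groups, gave 2242 to 3152 calls (2242 without untreated replicate 1, 3152 without ligand replicate 3), 1373 to 1816 higher, 869 to 1336 lower and 939 to 1217 at 1.5-fold or more. Of 191 named genes that were called, 162 kept their call in every alternative run, no named gene reversed, and of 46 not called, 8 passed in at least 1 alternative. Many named genes were chosen for a small p or a large change in these data. Their retention therefore does not describe all genes called. Median centring ended the calls of Itgb6, Smad3, Trim33, Ski, Tgif2, Tsc22d1, Tgfbi, Myh9, Myc, Mcm3, Cenpf, Errfi1, Btg2, Hk2 and Lyz2, and averaging probe sets those of Tgfb1, Itgb6, Smad3, Acvr1c, Tsc22d1, Acvr1, Tubb2a, Amotl1, Nek2, Cenpf, Egfr, Fosl2, Ccl25, Bace1, Sdhc, Car12 and Lyz2. Of 52 list medians, 12 changed sign with median centring, the largest of them 0.11, and 6 with quantile normalization. Counts of 1 or 2 calls in a list could move by 1 or more when 1 array was left out. The causes were not tested. Signals near the filter level limit the folds of genes that start or end there, since 28.8% of all values lay at or under 16.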
